A study of Homo sapiens with 8 samples.

Results

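The genes described here carried a single m6A peak in the authors' table of differential peaks, and that peak was annotated to the 3' UTR. They were found by counting the rows of each gene name over the whole table and keeping names with 1 row, a 3' UTR annotation and a description that does not name a pseudogene. This gave 1961 peaks on 1961 genes, which is 17.8% of the 10987 peaks, 27.7% of the 7081 gene names and 41.8% of the 4695 peaks annotated to a 3' UTR. Before the pseudogene filter there were 1990 such peaks, and 29 were left out. A gene enters by the number and place of its peaks in the table, and the rule itself uses no fold change or p-value. The table may not hold every peak tested, so whether a filter on such values set the number of rows is not known.

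The submitters fragmented poly(A) RNA of BCPAP cells, which derive from a papillary thyroid carcinoma, pulled down modified fragments with an m6A antibody and sequenced them beside the input. The 8 libraries form 4 groups of 2: control cells without antibody (input), control cells with anti-m6A antibody, and the same pair from cells with METTL3 knockdown. Each knockdown group has 1 library titled sh1 and 1 titled sh3, so its libraries carry different titles. The sh1 titles share the letter A with 1 control library of each kind, and the sh3 titles share the letter B with the other. What the letters stand for is not stated in the labels, and sh1 and sh3 cannot be separated from them. All groups share the cell line, and separate cultures within a group are not stated in the labels.

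N6-methyladenosine is the most common internal base modification of mRNA. It is placed on newly made transcripts by a nuclear complex whose catalytic subunit is METTL3, working with METTL14, and it is densest around stop codons and in the 3' UTR. Reader proteins of the YTHDF, YTHDC and IGF2BP families bind modified RNA and alter its splicing, export, translation or decay. A 3' UTR also holds microRNA sites and binding sites for proteins that set the life of the mRNA.

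The comparison is the authors' own: each peak has 1 log2 fold change, 1 p-value and 1 false discovery rate (FDR), with no value per library. No value below therefore has an error of its own. No reference condition is given in the header; a peak is named "lower" or "higher" here as if the value were knockdown over control. A peak is called when its deposited FDR is under 0.05. Whether that FDR covers the variation between sh1 and sh3 is not known, and the depth of the libraries is unknown. METTL3 has 0 peaks in the table, so the knockdown could not be checked there. Of 14 thyroid markers 4 have a peak, and of 5 epithelial markers 1 has a peak; a gene without a listed peak may still be expressed. DIO2, the thyroid hormone deiodinase, and KRT8, a keratin of simple epithelia, are among the lone 3' UTR genes, with 2.30 (FDR 0.314) and -0.87 (FDR 0.171) in the authors' deposited table.

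Most lone 3' UTR peaks were short and lay near the 3' end of the gene. The genomic span of the members was 360 bases at the median and 181 and 986 at the quartiles, and it ranged from 59 to 254241 bases. Spans are on genome coordinates and can include introns. A total of 1302 members (66.4%) had a span within 1 base of a multiple of 30, with a median of 240 bases, and the 659 others had a median of 1543 bases. Against the RefSeq annotation of GRCh38.p14, 1928 members (98.3%) matched a gene by symbol or synonym, and 1879 of these overlapped the bounds of that gene. For 1537 members inside their gene with a known strand, the centre of the peak lay at a median of 94.2% of the way from the 5' to the 3' bound. In 945 of them (61.5%) it lay in the last 10% of the gene, and in 156 (10.1%) it lay before the midpoint. The end of the peak stood a median of 1438 bases before the 3' bound, and in 180 members (11.7%) it reached or passed the bound. The peak covered the transcript start that the authors' table names (a listed distance of 0) in 143 members (7.29%), against 28.3% of all peaks.

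By RefSeq biotype 1908 members were protein-coding genes, 11 were long non-coding RNAs, 4 were snoRNAs, 1 was a microRNA, 4 were transcribed pseudogenes and 33 did not match. A 3' UTR label on a non-coding RNA is not that RNA's own, and 14 of these 20 non-coding members overlapped a coding gene. The peak assigned to SNORA31B lies in the bounds of TPT1, and it had -0.29 (FDR 5.01e-94) in the authors' deposited table. The peak assigned to SNORA66 lies over RPL5 and DIPK1A, and it had -0.36 (FDR 6.31e-39) in the authors' deposited table. SNORD58C lies in RPL17, with -0.27 (FDR 1.58e-15) in the authors' deposited table. These 3 RNAs are small guides processed from introns of their host genes, and the table has no strand, so host and guide cannot be told apart. The MIR4800 peak spans 659 bases on chromosome 4 (2249792 to 2250450, GRCh38) and overlaps MXD4, a repressor of MYC-type transcription; it had 0.36 (FDR 0.0263) in the authors' deposited table. It is the 1 microRNA among the members, and its mature 3p strand lies inside the peak (chr4:2250091-2250109, minus strand, RefSeq on GRCh38.p14), shown here 5' to 3' with the seed, bases 2 to 8, in capitals.
hsa-miR-4800-3p: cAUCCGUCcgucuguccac

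The first question was in which direction lone 3' UTR peaks moved with METTL3 knockdown. Read as knockdown over control, the called peaks were mainly lower, by small amounts. Of the 1961 members, 467 (23.8%) were called, where 17.1% of all peaks were called. Among the called, 356 were lower and 111 higher, so that 76.2% were lower (95% Clopper-Pearson interval 72.1 to 80.0%). If the deposited ratio were control over knockdown, every direction given here would reverse, and 111 of the 467 (23.8%) would be lower. Lower calls covered 18.2% of the members, with 10.6% of all peaks called lower, and higher calls covered 5.66% of the members, with 6.52% of all peaks called higher. Intervals here cover counting error only, since peaks share libraries and are not independent replicates.

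Called lower members had a median of -0.43 on the log2 scale, or 0.744-fold of the control, with quartiles of -0.61 and -0.30. The median of called higher members was 0.41, or 1.33-fold, with quartiles of 0.26 and 0.67. Of the 467 called members, 424 had an absolute log2 fold change under 1. At an FDR under 0.01, 278 members were called, where 9.24% of all peaks were. At 1 or more on the log2 scale the direction was nearly even, with 23 lower and 20 higher. Of all peaks 2.86% were called at that size, also nearly evenly, with 165 lower and 149 higher. At 2 or more on the log2 scale the higher side led, with 3 lower and 12 higher, and at 3 or more there were 2 lower and 8 higher. Counts at 2 and 3 were not made over all peaks, so this lead is not shown to be particular to the members. The median of all 1961 members was -0.31, and 65.7% of them had a negative value, where 55.3% of all peaks had one. The 1494 members that were not called leaned the same way, with 62.4% negative and a median of -0.30. The median of all peaks was -0.24 (all 10987). After this shift was subtracted, 303 called members were lower, 163 higher and 1 was at 0, so that 65.0% were lower (interval 60.5 to 69.4%), where 53.9% of all called peaks were lower.

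**Figure D1:**
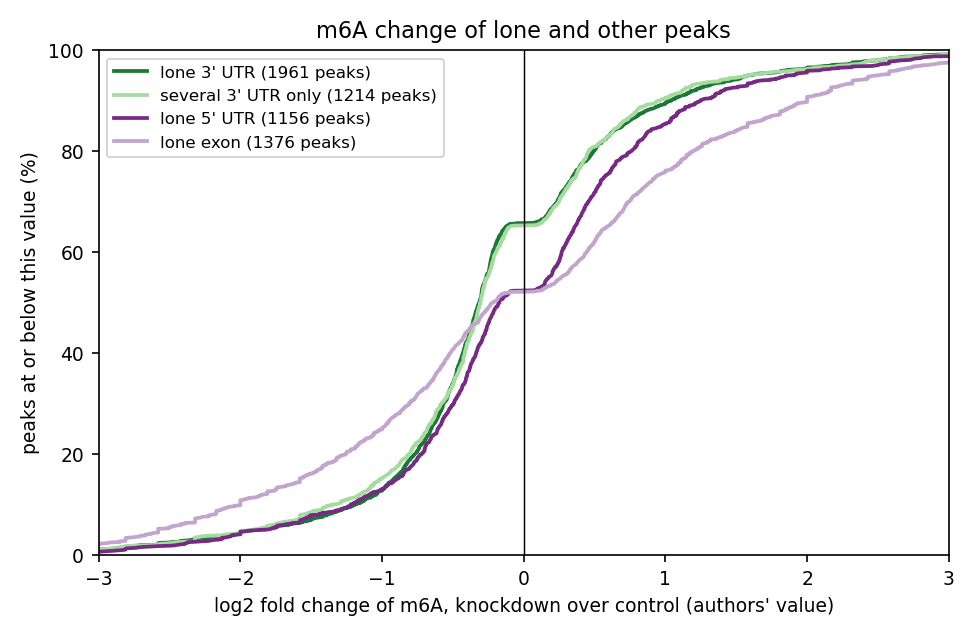
Cumulative share of peaks (percent, vertical) at or below each log2 fold change (knockdown over control, horizontal, from -3 to 3) for 4 kinds of gene. The curves of genes with a lone 3' UTR peak (1961 peaks) and with several 3' UTR peaks only (1214 peaks) nearly coincide and cross 0 at 65.7% and 65.2%, while lone 5' UTR and lone exon peaks cross 0 at 52.3% and 52.1%; the flat stretch at 0 arises because the table holds few values near 0.

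Set beside genes with a lone peak elsewhere, lone 3' UTR peaks had a larger share of calls with a negative log2 fold change, which is lower m6A in the knockdown only under the reading of the ratio used here. Lone 5' UTR peaks (1156) had 120 lower and 89 higher calls, or 57.4% lower (interval 50.4 to 64.2%), with a median of -0.17. Lone exon peaks (1376) had 76 lower and 71 higher, or 51.7% lower (interval 43.3 to 60.0%), with a median of -0.22. The intervals of both stood below that of the lone 3' UTR peaks. After the shift was subtracted, 50.2% of called lone 5' UTR peaks and 46.3% of called lone exon peaks were lower. Lone 3' UTR peaks were also called more often (23.8%) than lone 5' UTR peaks (18.1%) or lone exon peaks (10.7%).

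A further peak in the 3' UTR went with much the same picture. Genes with several peaks, all in the 3' UTR, had 1214 peaks on 526 genes, of which 155 were called lower and 63 higher, or 71.1% lower (interval 64.6 to 77.0%). Just outside the rule stand the genes with exactly 2 peaks, both in the 3' UTR: their 829 peaks had 109 lower and 44 higher calls, 71.2% lower (interval 63.4 to 78.3%), and a median of -0.30. Both intervals overlap that of the members. The share called was 18.0% in the first group and 18.5% in the second, with 23.8% among the members. None of these differences between kinds of gene was tested, since the same libraries lie behind all of them.

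The direction of the called members differed by span. Short lone 3' UTR peaks were almost always lower when called, and wide ones were mixed. Under 200 bases there were 530 members, of which 59 (11.1%) were called, with 55 lower and 4 higher, or 93.2% lower (interval 83.5 to 98.1%). From 200 to under 500 bases, 143 of 640 members (22.3%) were called, with 120 lower and 23 higher, or 83.9% lower (interval 76.9 to 89.5%). From 500 to under 2000 bases, 153 of 465 (32.9%) were called, with 103 lower and 50 higher, or 67.3% lower (interval 59.3 to 74.7%). At 2000 bases or more, 112 of 326 (34.4%) were called, with 78 lower and 34 higher, or 69.6% lower (interval 60.2 to 78.0%). The share called rose with span among all peaks too, from 5.8% through 14.9% and 24.9% to 26.9%.

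**Figure D2:**
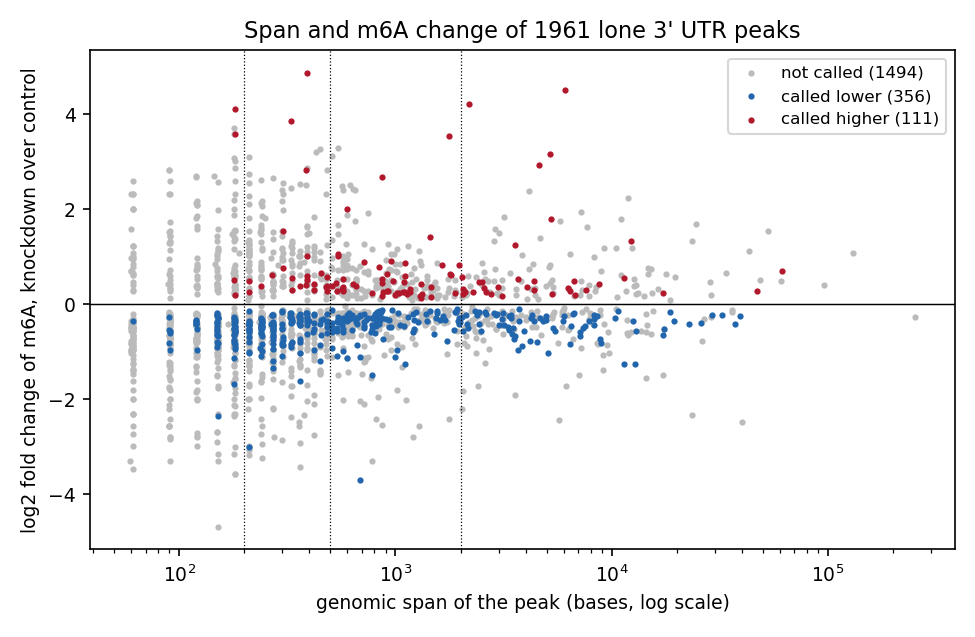
Log2 fold change (knockdown over control, vertical) of each of the 1961 lone 3' UTR peaks against its genomic span in bases (horizontal, log scale), with 356 called lower in blue, 111 called higher in red and 1494 not called in grey; dotted lines mark 200, 500 and 2000 bases. Called higher peaks thin out towards short spans (4 under 200 bases), and short spans stand in columns 30 bases apart.

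Sizes of change also went with span. The median of the members rose from -0.48 under 200 bases through -0.37 and -0.20 to -0.22 at 2000 bases or more. Over all peaks the medians of these classes also rose, at -0.415, -0.29, -0.109 and -0.157. Called lower members had medians of -0.56, -0.46, -0.36 and -0.37 in the 4 classes. The rank correlation of span with the log2 fold change was 0.19 over the 1961 members, against 0.071 over all 10987 peaks. Over the 467 called members it was 0.31, and it was not computed over all called peaks. With the absolute log2 fold change the correlation was -0.31 over the members and -0.36 over all peaks. These correlations describe peaks that share libraries. The members within 1 base of a multiple of 30 had 82.0% lower among 256 called, and the others 69.2% lower among 211 called. From 500 to under 2000 bases, where both kinds were frequent, the shares were 71.7% and 64.5%. After the shift was subtracted, the share of lower calls was 91.5% under 200 bases, 74.6% from 200 to under 500, 52.3% from 500 to under 2000 and 56.2% at 2000 or more.

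The same fall with span was seen over all peaks, at a lower level. Of all called peaks 83.5% were lower under 200 bases, then 70.7%, 55.0% and 55.7% in the wider classes. Genes with several 3' UTR peaks only had 18 lower and 0 higher calls under 200 bases, then 73.5%, 58.9% and 74.6% lower. Lone 5' UTR peaks had 9 lower and 3 higher calls under 200 bases, then 59.5%, 65.1% and 49.5%. Lone exon peaks had 7 lower and 4 higher calls under 200 bases, then 51.4%, 42.6% and 57.7% lower. The 4 short members that were higher were named after their values were seen. They were MATN2, a matrilin of the extracellular matrix, at 4.11 (FDR 0.0331), KIAA1328 at 3.58 (FDR 0.0447), FBLIM1, a filamin-binding adhesion protein, at 0.49 (FDR 0.00282) and CSRP1, a LIM protein of the actin cytoskeleton, at 0.17 (FDR 0.00331) in the authors' deposited table.

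**Figure D3:**
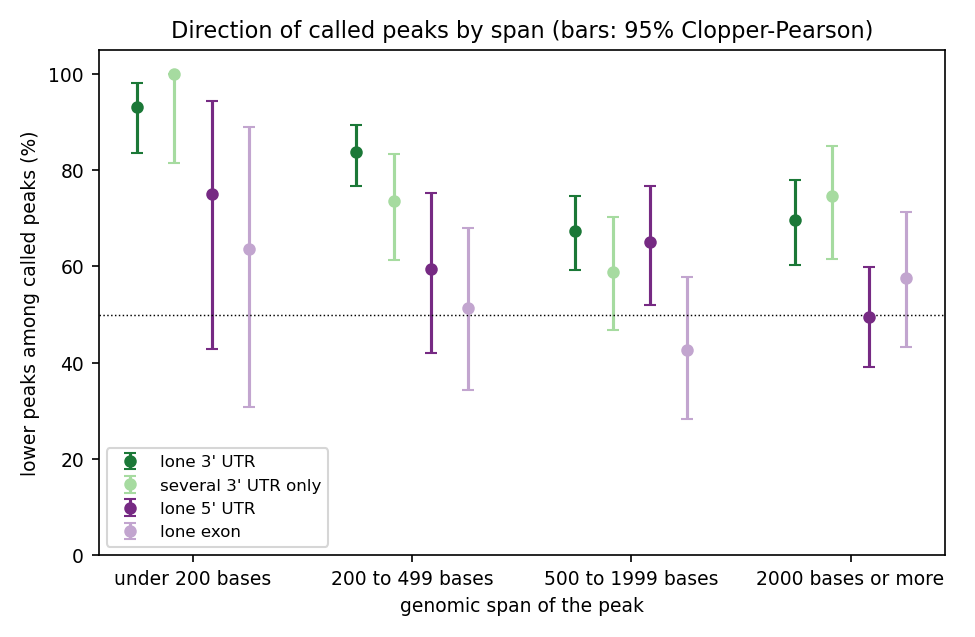
Share of lower peaks among called peaks (percent, vertical, from 0) by class of genomic span (horizontal) for 4 kinds of gene, with 95% Clopper-Pearson intervals as bars and a dotted line at an even split. Lone 3' UTR peaks go from 93.2% under 200 bases to 69.6% at 2000 bases or more, and the wide bars of lone 5' UTR and lone exon peaks under 200 bases rest on 12 and 11 called peaks.

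The share of lower calls was given for each place along the gene, and these places were not compared by a test. Lower calls made up 76.7% of the called members in the last 10% of the gene (188 lower, 57 higher), 74.3% of those between there and the midpoint, and 76.7% of those before the midpoint (23 lower, 7 higher). By distance to the 3' bound, 68.3% of called members that reached or passed it were lower, 76.1% of those ending 1 to 500 bases before it, 71.3% of those over 500 and up to 2000 bases before it and 82.1% of those farther away (119 lower, 26 higher). The share called was 33.3% at or past the bound and 22.1% farther than 2000 bases. Only 39 members (1.99%) overlapped a peak assigned to another gene. The 49 members outside the RefSeq bounds of their gene had 4 lower and 3 higher calls. One is MRNIP, a DNA repair factor, with 0.88 (FDR 2.51e-08) in the authors' deposited table, whose peak lies in SQSTM1, the autophagy receptor p62; another is PLCG1, with 0.53 (FDR 0.00589) in the authors' deposited table, whose peak lies in ZHX3.

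The smallest FDRs belonged mostly to small decreases. Of the 12 members with the smallest FDR, 11 were lower in the authors' deposited table, by values between -0.88 and -0.28, and 6 of the 12 encode ribosomal proteins. RPL13A had -0.33, or 0.796-fold (ENSG00000142541, chromosome 19, 49491408 to 49492308), with a log10 FDR of -434 in the authors' deposited table. RPL13 (ENSG00000167526, chromosome 16, 89562894 to 89563463) fell most among the ribosomal calls, with -0.60, or 0.662-fold (FDR 1e-164), in the authors' deposited table. PDIA3, a disulfide isomerase of the endoplasmic reticulum, had -0.39 (FDR 2.00e-43) and PSMC3, an ATPase of the proteasome, -0.32 (FDR 3.98e-26) in the authors' deposited table. The largest fall of the 12 was in DNAJB6, a co-chaperone of HSP70 that holds back protein aggregation. Its 300-base peak (ENSG00000105993, chromosome 7, 157385544 to 157385843) had -0.88, or 0.544-fold and FDR 2.51e-40 in the authors' deposited table, and it ends 31596 bases before the 3' bound of the gene. With the shift subtracted, PDIA3 had -0.16, PSMC3 -0.089 and DNAJB6 -0.64. BANF1, a DNA-bridging protein of the nuclear envelope, was the 1 that was higher, at 0.36, or 1.29-fold (FDR 2.00e-35), in the authors' deposited table.

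The 12 largest decreases had FDRs from 9.12e-07 to 0.0490. LHB, the beta chain of luteinizing hormone, had -3.71 (FDR 0.0490) in the authors' deposited table, and reads of LHB can fall on near-identical chorionic gonadotropin genes, so this value is uncertain. HIKESHI (ENSG00000149196, chromosome 11, 86345704 to 86345913), which carries HSP70 into the nucleus under heat stress, had -3.01, or 0.124-fold (FDR 0.00191), in the authors' deposited table. SLC22A15, an organic ion transporter, had -2.37 (FDR 0.0135) in the authors' deposited table. XPA, the damage-checking protein of nucleotide excision repair (ENSG00000136936, chromosome 9, 97675534 to 97675895), had -1.63, or 0.323-fold (FDR 7.76e-05), in the authors' deposited table. CD82, a tetraspanin known as a metastasis suppressor, had -1.15, or 0.451-fold (ENSG00000085117, chromosome 11, 44619760 to 44620358), and its FDR of 9.12e-07 was the smallest of the 12 largest decreases in the authors' deposited table. ATAD3C at -1.69 also has close copies, ATAD3A and ATAD3B, and is uncertain for that reason (FDR 0.0339 in the authors' deposited table). The other 6 were CLDND2, CCDC88B, the homeobox gene SHOX2, the TIE2 ligand ANGPT1, the kinase MAST3 and the zinc finger gene ZNF707, from -1.50 to -1.20 with FDRs between 0.00525 and 0.0427 in the authors' deposited table.

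Among called members without clone, predicted or uncharacterised names, the 12 largest increases on the log2 scale ran from 1.79 to 4.86. The 12 largest decreases ran from -3.71 to -1.15. KIAA1328, at 3.58 (FDR 0.0447) in the authors' deposited table, was left out by that name filter. CILP2, a cartilage matrix protein (ENSG00000160161, chromosome 19, 19545913 to 19546301), had 4.86 (FDR 0.00363) in the authors' deposited table. A 6057-base peak of ANPEP, the aminopeptidase CD13 of the cell surface, had 4.50 (FDR 0.000468) in the authors' deposited table. MTRF1L, a release factor of mitochondrial translation, had 2.93, or 7.62-fold (ENSG00000112031, chromosome 6, 152984219 to 152988845), and its FDR of 1.58e-12 was the smallest of the 12 largest increases in the authors' deposited table. This peak runs past the 3' bound of the gene. SOD3, the extracellular superoxide dismutase, had 2.81 (FDR 0.0174) and KCNE4, a potassium channel subunit, 2.00 (FDR 0.0282) in the authors' deposited table. RFX2, a ciliary transcription factor, had 4.2 (FDR 0.0339) in the authors' deposited table, but the peak lies outside its bounds and inside ACSBG2. CFAP52, a ciliary protein, and PPP1R9A, the actin-binding neurabin, had 3.85 (FDR 0.0295) and 3.54 (FDR 0.0398) in the authors' deposited table. SVIP, an inhibitor of protein degradation from the endoplasmic reticulum, had 3.16 (FDR 0.0191) in the authors' deposited table. Most of its 5160-base peak lies past the 3' bound of the gene (distance to the bound -5068 bases, negative past it). RAB27B, a secretory vesicle GTPase, had 1.79 (FDR 0.0389) in the authors' deposited table.

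**Figure D4:**
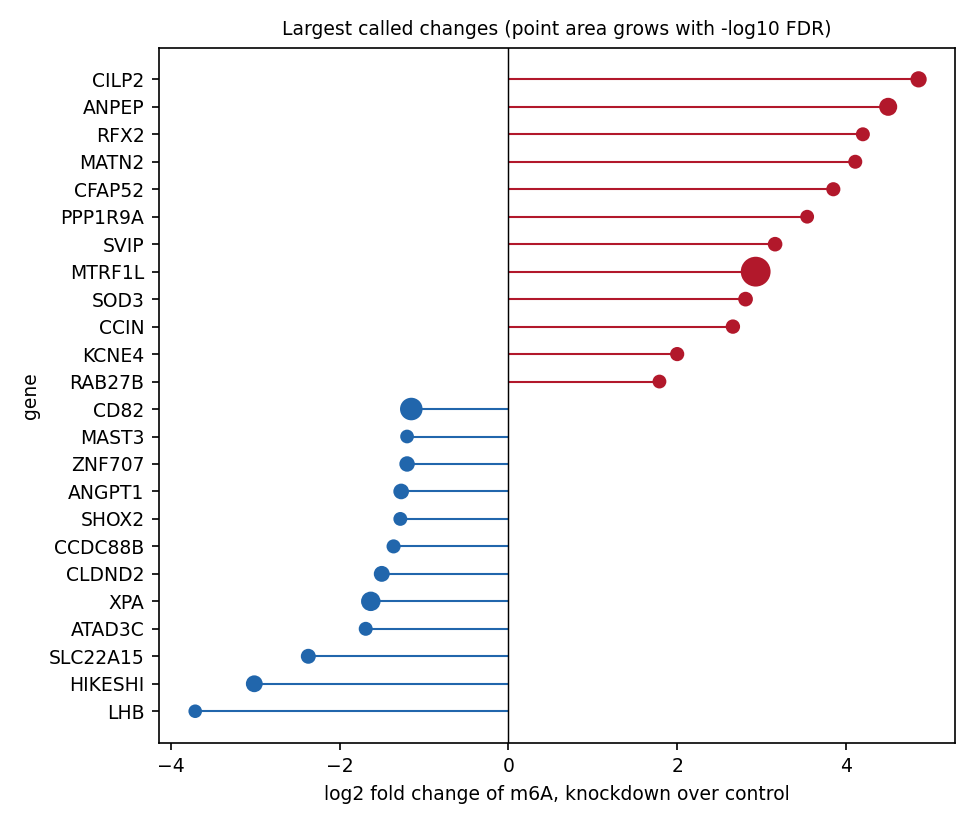
Log2 fold change (knockdown over control, horizontal) of the 12 largest increases (red) and 12 largest decreases (blue) among called lone 3' UTR peaks. Genes with clone, predicted or uncharacterised names are left out, among them KIAA1328 at 3.58. Each row is 1 gene, and the area of each point grows with -log10 of the FDR. The increases run from 1.79 to 4.86 and the decreases from -3.71 to -1.15, and MTRF1L and CD82 have the biggest points.

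The members were then described by gene group, using 27 lists of gene symbols that cover 691 members (35.2%). In 22 of the 25 lists with a call more members were lower than higher, and in 9 of the 25 there were 0 higher. The median was negative in 23 of the 27 lists, and in 19 with the shift subtracted. The zinc finger genes were the 1 list with more higher than lower calls. These counts and those of each list below stand beside 18.2% of members and 10.6% of all peaks called lower, and 5.66% and 6.52% called higher. The median was -0.31 over the members and -0.24 over all peaks. A list whose shares are near those of the members gives no result about that list.

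**Figure D5:**
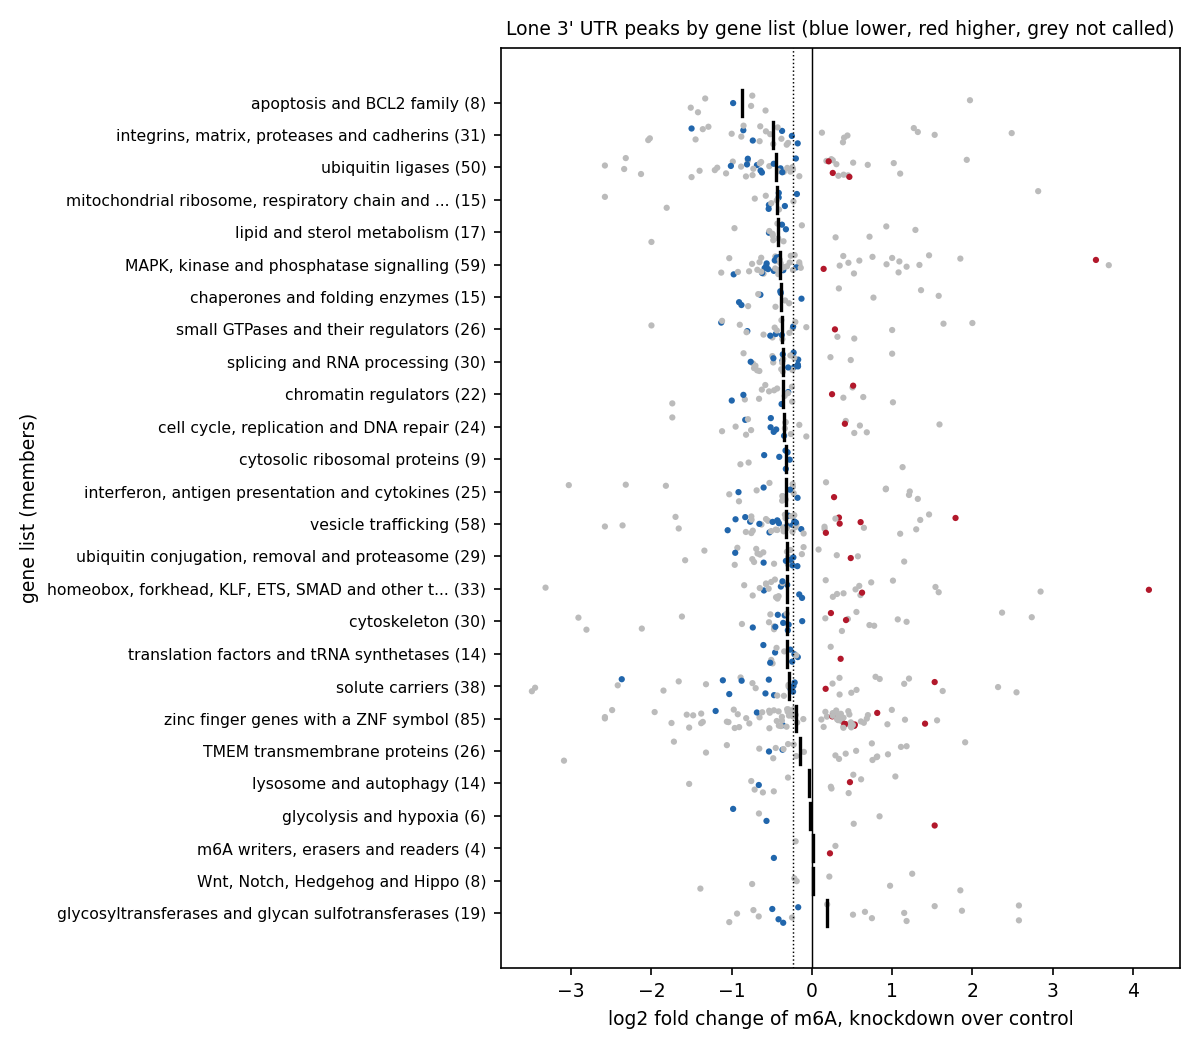
Log2 fold change (knockdown over control, horizontal) of lone 3' UTR peaks in 26 gene lists (number of members in brackets), ordered by median (black bar), with called lower in blue, called higher in red and not called in grey; the dotted line is the median of all peaks, -0.24, and the thyroid list, with 1 member, is not drawn. Bars stand left of 0 for most lists, and red points outnumber blue among the zinc finger genes.

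Genes that make and handle RNA and protein were called often, almost always lower, but their changes were not larger. List medians were -0.33 for ribosomal proteins, -0.31 for translation and -0.36 for splicing, near the -0.31 of all members. Their called lower members had medians of -0.33, -0.27 and -0.26, smaller falls than the -0.43 of all called lower members. Of 9 ribosomal protein genes 6 were lower, 0 higher and 3 not called, and all 6 stayed below 0 with the shift subtracted, 4 of them close to it. RPL13 then had -0.36, RPS27A -0.17, RPL13A -0.094, RPL11 -0.090, RPL15 -0.068 and RPL35 -0.042. The 6 were RPL13, RPS27A, RPL13A, RPL11, RPL15 and RPL35, and after RPL13 the next was RPS27A at -0.41 (FDR 3.16e-27) in the authors' deposited table. The other 3 had -0.89 for RPL31 (FDR 0.516), -0.79 for RPS19 (FDR 0.228) and 1.13 for RPS29 (FDR 0.579) in the authors' deposited table. Ribosomal protein genes have many processed copies in the genome, and reads could be split between them.

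Translation factors and tRNA synthetases had 7 of 14 lower and 1 higher (5 and 3 with the shift subtracted). EIF3F and EIF3M, subunits of the initiation factor that binds the small ribosomal subunit, had -0.60 (FDR 6.31e-14) and -0.46 (FDR 0.000525) in the authors' deposited table. EIF2S3, the gamma subunit of the factor that brings the initiator tRNA, had -0.52 (FDR 5.01e-12), and PARS2, the mitochondrial prolyl-tRNA synthetase, had 0.36 (FDR 0.00468) in the authors' deposited table.

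Splicing and RNA processing genes had 10 of 30 lower, 0 higher and 20 not called, with 27 of 30 values negative, but with the shift subtracted the 10 called split into 5 lower and 5 higher. CNOT2, of the deadenylase complex that shortens poly(A) tails, had -0.76 (FDR 0.00955) and SRSF1, a splicing factor, -0.48 (FDR 2.51e-11) in the authors' deposited table. The SRSF1 peak overlaps a peak assigned to AC015813, which had -0.54 (FDR 1.45e-06) in the authors' deposited table. HNRNPA1, a nuclear RNA-binding protein with many processed copies, had -0.36 over a 61-base peak (FDR 0.000178) in the authors' deposited table. Of 4 genes of the m6A machinery, the reader FXR1 had -0.47 (FDR 0.0110) and the reader YTHDF1 0.23 (FDR 1e-11) in the authors' deposited table. The methyltransferase subunit METTL14 had 0.29 (FDR 0.0891) and the separate methyltransferase METTL16 -0.20 (FDR 0.115) in the authors' deposited table, and neither was called.

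Chaperones, mitochondrial proteins and the ubiquitin system followed the same direction. Of 15 chaperones and folding enzymes 6 were lower and 0 higher (5 and 1 with the shift subtracted), among them HSPA4, an HSP70 exchange factor, at -0.91 (FDR 0.0240) and PPID, a cyclophilin that works with HSP90, at -0.64 (FDR 0.00468) in the authors' deposited table. Mitochondrial ribosome, respiratory chain and import genes also had 6 of 15 lower and 0 higher (5 and 1 with the shift subtracted). TOMM22, a receptor of the outer membrane import pore, had -0.54 (FDR 0.000575), and NDUFAF7, an assembly factor of complex I, also had -0.54 (FDR 0.00490) in the authors' deposited table. Of 50 ubiquitin ligases 10 were lower and 3 higher, and the 20.0% lower was near the 18.2% of the members. TRIM65 had -1.01 (FDR 0.0372) and FBXW11, which picks out beta-catenin and other phosphorylated proteins, -0.81 (FDR 0.0162) in the authors' deposited table. Of 29 genes of ubiquitin conjugation, removal and the proteasome 7 were lower and 1 higher (5 and 3 with the shift subtracted). UBE2S, the chain-extending enzyme of the anaphase-promoting complex, had -0.96 (FDR 0.0135) and the deubiquitinase USP42 0.48 (FDR 0.00309) in the authors' deposited table.

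Transcription and chromatin genes were called less uniformly. The 85 zinc finger genes with a ZNF symbol had 3 lower, 7 higher and 75 not called, a median of -0.20 and 45 negative values; the 10 called were named after their values were seen, beyond the 4 with the largest change. The lower ones were ZNF707 at -1.20, ZNF383 at -0.69 and ZNF207 at -0.36 in the authors' deposited table. The higher ones were ZNF638 at 1.41, ZNF585B at 0.81, ZNF30 at 0.54, ZNF16 at 0.53, ZNF485 at 0.42, ZNF584 at 0.40 and ZNF274 at 0.25 in the authors' deposited table. ZNF585B has a close copy, ZNF585A, and is uncertain. Of 33 other transcription factors 6 were lower and 2 higher (4 and 4 with the shift subtracted). TEAD1, the DNA-binding partner of YAP, had -0.60 (FDR 2.69e-05) and JUND, a subunit of AP-1, 0.63 (FDR 6.76e-09) in the authors' deposited table. RFX2, the other higher one, and FOXK2, lower at -0.16 (FDR 0.000251) in the authors' deposited table, have peaks outside their gene bounds. These peaks lie in ACSBG2 and WDR45B. The symbol pattern of this list did not match SHOX2 or TWIST2, whose values are given elsewhere. Of 22 chromatin regulators 4 were lower and 2 higher, among them the histone demethylases KDM5A at -0.999 (FDR 0.0479) and KDM1A at -0.38 (FDR 0.0148) and the acetyltransferase KAT6A at 0.51 (FDR 0.0138) in the authors' deposited table.

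Membrane traffic and transport genes mostly had the direction of the members. Of called vesicle trafficking genes 76.2% were lower, the same share as of all called members, so this gives no result about that list. Of called solute carriers 84.6% were lower. Of 58 vesicle trafficking genes 16 were lower and 5 higher (13 and 8 with the shift subtracted). VPS8, a tethering subunit of early endosomes, had -1.05 (FDR 0.0347) and RAB23, a GTPase that restrains Hedgehog signalling, -0.95 (FDR 0.0269) in the authors' deposited table. Of 38 solute carriers 11 were lower and 2 higher (8 and 4 with the shift subtracted). SLC25A20, the mitochondrial carnitine carrier, had -1.11 (FDR 0.00182) and SLC35D1, a nucleotide sugar transporter, -1.03 (FDR 0.00331) in the authors' deposited table. SLC16A1, the lactate transporter MCT1, was higher at 1.53 (FDR 0.00263) in the authors' deposited table. Of 14 lysosome and autophagy genes, GABARAPL2, an ATG8 family protein, had -0.66 (FDR 0.0191) and ULK1, the kinase that starts autophagy, 0.47 (FDR 3.02e-05) in the authors' deposited table, and 12 were not called.

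Glycosyltransferases and lipid genes had few calls, all lower. Of 19 glycosyltransferases and glycan sulfotransferases 4 were lower and 0 higher, although the median of the 19 was 0.19. They were the sialyltransferases ST3GAL1 at -0.49 (FDR 0.00102) and ST3GAL4 at -0.42 (FDR 0.000603), UGGT1, which checks the folding of glycoproteins, at -0.36 (FDR 2.51e-09), and B4GAT1 at -0.17 (FDR 0.00257) in the authors' deposited table. B4GAT1 stood at 0.064 with the shift subtracted, so that list then had 3 lower and 1 higher. Most of the 26024-base ST3GAL4 peak lies past the 3' bound of its gene (distance to the bound -25556 bases, negative past it). Of 17 lipid and sterol genes 3 were lower and 0 higher, namely PCYT1A, a rate-setting enzyme of phosphatidylcholine synthesis, at -0.54 (FDR 0.0316), the thioesterase ACOT9 at -0.37 (FDR 0.0251) and the lipid droplet protein PLIN3 at -0.32 (FDR 0.00182) in the authors' deposited table. Among 26 TMEM genes 2 were lower, TMEM39A at -0.54 (FDR 0.00363) and TMEM30A, a subunit of lipid flippases, at -0.37 (FDR 0.000603) in the authors' deposited table.

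Kinase and adhesion genes had shares of lower calls near the 18.2% of the members. The shares of small GTPase and cytoskeletal genes were 23.1% and 26.7%. They rest on few genes and give no result about those lists. Of 59 MAPK, kinase and phosphatase genes 12 were lower (20.3%) and 2 higher, with the mitotic kinases NEK7 at -0.98 (FDR 0.00457) and NEK6 at -0.62 (FDR 2.75e-09) in the authors' deposited table. Of 26 small GTPases and their regulators 6 were lower (23.1%) and 1 higher (5 and 2 with the shift subtracted). ARHGAP30 had -1.13 (FDR 0.0257) and PLEKHA7, an adherens junction protein counted here by its symbol, -0.80 (FDR 0.0457) in the authors' deposited table. Of 31 integrin, matrix, protease and cadherin genes 6 were lower (19.4%) and 0 higher (5 and 1 with the shift subtracted), with a median of -0.48. MMP14, a membrane protease that cuts collagen, had -0.85 (FDR 0.00166), ITGAE, an integrin that binds E-cadherin, -0.74 (FDR 0.0182) and COL5A2, a fibrillar collagen chain, -0.37 (FDR 0.00389) in the authors' deposited table. MATN2, CILP2 and the cell-surface peptidase ANPEP, all called higher, are not in that list, so its 0 higher holds only for the symbols matched. CLDND2 and MMP24OS, matched by symbol only, are among its 6 lower. Of 30 cytoskeletal genes 8 were lower (26.7%) and 2 higher. The kinesins KIF15 and KIF3C had -0.74 (FDR 0.00148) and 0.42 (FDR 0.000302) in the authors' deposited table.

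Cell cycle and stress genes gave smaller groups. Of 24 cell cycle, replication and repair genes 6 were lower and 1 higher, among them ANAPC4 of the anaphase-promoting complex at -0.83 (FDR 0.0178), the kinase CDK7 at -0.52 (FDR 0.00525), the Fanconi protein FANCG at -0.51 (FDR 0.0347) and the clamp loader subunit RFC4 at -0.48 (FDR 0.0331) in the authors' deposited table. Of 25 interferon, antigen presentation and cytokine genes 5 were lower and 1 higher (4 and 2 with the shift subtracted). IL17RC, a receptor of interleukin 17, had -0.92 (FDR 0.0302), PSMB9, a subunit of the immunoproteasome counted in the ubiquitin and proteasome list, -0.60 (FDR 0.0186) and the kinase TYK2 0.28 (FDR 0.000126) in the authors' deposited table. Of 8 apoptosis genes BNIP3, a mitophagy receptor induced by hypoxia, was lower at -0.98 (FDR 1.55e-08) in the authors' deposited table, and the median of the 8 was -0.87. Among 6 genes of glycolysis and hypoxia there were 2 lower and 1 higher, and the hexokinase HK1 had -0.57 (FDR 2.04e-09) in the authors' deposited table. The 8 genes of Wnt, Notch, Hedgehog and Hippo signalling had 0 called, with a median of 0.014, which holds only for the symbols matched. TEAD1, RAB23 and FBXW11, tied above to YAP, Hedgehog signalling and beta-catenin, were called lower and are in other lists. AXIN2, an inhibitor and target of Wnt signalling, had -1.39 (FDR 0.124) in the authors' deposited table. The 1 thyroid gene was DIO2, given above.

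Among the largest of the authors' annotation terms by number of members, 38 of 39 gene ontology terms and 34 of 40 pathways had more lower than higher calls, while 4 pathways had more higher and 3 terms had equal counts. Of all members 18.2% were called lower, and so were 10.6% of all peaks. Of 150 members with the gene ontology term RNA binding, 53 were lower and 6 higher, and 39.3% were called. Their median was -0.30, near the -0.31 of all members. The term mitochondrion had 143 members with 39 lower and 9 higher, protein transport 99 with 30 lower and 3 higher, and nucleolus 92 with 28 lower and 4 higher. Among pathways, protein processing in endoplasmic reticulum had 31 members with 11 lower and 2 higher, ubiquitin mediated proteolysis 18 with 7 lower and 0 higher, RNA transport 17 with 7 lower and 0 higher, and spliceosome 17 with 6 lower and 0 higher. Multicellular organism development had 6 lower and 6 higher, phosphatidylinositol signaling 2 and 3, inositol phosphate metabolism 1 and 3, and neuroactive ligand-receptor interaction also 1 and 3. The phospholipase D signaling pathway had its calls in the other direction, with 0 of 20 members lower and 5 higher and a median of 0.27. Named after their values were seen, these 5 were the lysophosphatidic acid receptor LPAR3 at 0.57 (FDR 0.000575), PLCG1 at 0.53, the ARF exchange factor CYTH3 at 0.49 (FDR 0.00676), the G protein subunit GNA12 at 0.28 (FDR 0.00200) and the lipid kinase PIP5K1C at 0.27 (FDR 1.02e-06) in the authors' deposited table. The PLCG1 peak lies outside its gene, in ZHX3, so the 5 higher calls include a peak placed in another gene. No enrichment was tested for any list or term. Members with an enzyme number (365) had 71 lower and 15 higher calls.

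The ends of the span range held few called members. The narrowest was CFAP97D1 at 59 bases, followed by 18 members of 60 bases, of which 0 were called. ALDH5A1, ALDH8A1, APLN and CLDN11 are the first of those 18 in alphabetical order. These 5 named genes were not called, and their values ran from -3.32 for CFAP97D1 to 2.32 for ALDH8A1 in the authors' deposited table, with FDRs from 0.457 to 0.592. The widest were SLC8A1-AS1 at 254241 bases, CCDC148 at 130466, FAM78B-AS1 at 96271, TWIST2 at 61139 and GPATCH2 at 60562. Of these 5, TWIST2, a transcription factor of mesenchymal cells, was the 1 called, at 0.70 (FDR 8.32e-06) in the authors' deposited table. A total of 75 members spanned 10000 bases or more, wider than a UTR, so the label of such a peak does not fix where in the transcript the signal lies.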

How the data were processed

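Groups follow the labels for genotype and antibody. The submitters' processing notes list edgeR, StringTie, ChIPseeker, HOMER, HISAT2 and fastp without their roles, and the builds hg38 and GRCh38. Which tool called differential peaks, with which filters and with or without pooling, is not given in the sources used here. Both the log2 fold change and the p-value of each peak are the authors' deposited values. The FDR was computed from the authors' deposited score, its log10 per the file headers. The span and the distance to the transcript start are likewise the authors' deposited values.

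The sign of the fold change matched the deposited up or down label in all 1961 members. Among the members p reached 0.668 and no log2 fold change was nearer to 0 than 0.0468, so the table may not hold every peak tested. There were 306 peaks without a gene name, 111 of them in 3' UTRs, which could not be members. Gene bounds, biotypes and strands came from RefSeq tables of GRCh38.p14. Shares have 95% Clopper-Pearson intervals, and no test of significance was added to the authors' own. Tools were matplotlib 3.10.9, scipy 1.17.1, numpy 2.4.6, pandas 2.3.3 and Python 3.11.15, and the counting was tested on simulated data.

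The members and gene lists were chosen with earlier results of these data known, and no list is independent evidence of its direction. Lists were matched by symbol pattern, so KDM4A-AS1, MMP24OS, CLDND2, SLC8A1-AS1 and TRAF3IP1 were counted in lists whose families they do not belong to. Named genes were the 12 largest decreases, 12 largest increases and 12 smallest FDRs among called members without clone, predicted or uncharacterised names, the 5 widest and 5 narrowest members, and in each list the called members of largest absolute change, at most 4. List members that were not called could be named with values only. Genes named for the phospholipase D term, the non-coding members, those outside their gene bounds and the 4 short higher members were chosen after their values were seen. Alternatives were other FDR, p and fold thresholds, subtraction of the median shift, and leaving out overlapping, wide or out-of-bounds members. Sequence in the peaks was not analysed here.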

Additional observations from a re-analysis of the deposited data

How the results depend on the processing

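With an FDR under 0.01, 278 members were called, 216 lower and 62 higher, and the share called by span class became 5.47%, 13.1%, 21.7% and 19.6%. With an absolute log2 fold change of 1 or more as a further condition, 43 members were called, 23 lower and 20 higher (53.5% lower). With the median shift of all peaks subtracted, 65.0% of called members were lower and the median of all members was -0.079; from 200 to under 500 bases 74.6% were lower, from 500 to under 2000 bases 52.3% and at 2000 bases or more 56.2%. The same step gave 50.2% lower for lone 5' UTR peaks and 61.0% for genes with several 3' UTR peaks only, and B4GAT1 changed sign to 0.064. Without spans of 2000 bases or more the members' median was -0.345, and 64.3% of called lone 5' UTR peaks were lower. For another 68 values of counts, shares and medians and 161 of lists and named genes the change was not counted as a move. Counts among these changed by at most 1.5 times. Not all stayed near: members called rose to 637 with recomputed Benjamini-Hochberg values and to 596 with p under 0.01. Subtracting the shift raised each named gene by the same amount, so small decreases lost most of their size. RPL35 went from -0.28 to -0.042 and PSMC3 from -0.32 to -0.089. At an FDR under 0.01 lower calls became 8 in vesicle trafficking, 4 in ubiquitin ligases, 6 in splicing, 3 in the mitochondrial list and 3 in ubiquitin conjugation. They became 2 in chromatin regulators, small GTPases and the cell cycle list, 1 in the interferon and lipid lists, and 0 in the m6A and lysosome lists. Restriction to protein-coding members, and subtraction of the shift from named genes, were added after seeing the data. Leaving out a library could not be done, since the table holds no value per library. The titles set each knockdown beside a control by the letter A or B, but no paired analysis was possible because the columns carry no replicate. With no depth per library and no spread between sh1 and sh3, the FDR alone limits what can be called. The cause of these shifts was not tested, beyond the fewer peaks that a stricter threshold leaves.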

Other observations

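All 22 chromosomes with a called lone 3' UTR peak had more lower than higher, from 57.1% to 92.9% lower, beside 76.2% of all called members and 62.0% of all called peaks. In 20 of the 22 the 76.2% lay inside the 95% Clopper-Pearson interval, and the exceptions were chromosomes 5 and 19. Chromosome 5 had 26 lower and 2 higher. Chromosome 19, which holds many zinc finger genes, had 24 lower and 17 higher, and chromosome 21 had 0 called of 13. These were picked after their values were seen, and chromosomes were not compared by a test. Members that were not called included 417 with an absolute log2 fold change of 1 or more, 228 lower and 189 higher, so a large value in the authors' table was often not a call. Of all members, 1034 (52.7%) had a p under 0.05. This count and the 417 were not made over all peaks, so they are not shown to be particular to the members.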
